A study of Mus musculus with 4 samples.

Results

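The genes described here are 8 that carry the signals of leukaemia inhibitory factor and of stem cell factor: the ligand gene Lif, its receptor genes Lifr and Il6st, the kinase gene Jak1, the transcription factor gene Stat3, the feedback inhibitor gene Socs3, and the receptor and ligand pair Kit and Kitl. They were taken as the rows of the deposited array table whose annotation names exactly 1 gene symbol, that of the gene. Each of the 8 had 1 such row and no row shared with another symbol, out of 30142 genes measured. No filter on level was applied, so all 8 were tested. Signal is given throughout on the log2 scale as deposited, where a difference of 1 is a doubling.

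The study compared blastocyst outgrowths of 2 mouse genotypes on 4 arrays. An outgrowth is what a blastocyst becomes after it attaches in a dish: trophoblast cells spread over the dish and the inner cell mass grows on top of them. The Tip110-/- outgrowths were homozygous mutant for Tip110, the protein of the gene Sart3, which helps the U4 and U6 small nuclear RNAs to pair during splicing, and the wild-type outgrowths came from the same kind of cross, between Tip110+/- parents. Blastocysts were flushed at 3.5 days post coitum, after natural matings or superovulation, and grown for 4 to 6 days without treatment in an embryonic stem cell medium made with knockout serum replacement. Whether that medium held LIF is not given in the sources used here. How the allele was made, and which part of the gene it lacks, is also not given in them. In each genotype replicate 1 pooled 3 outgrowths and replicate 2 was a single outgrowth. The labels call the samples biological replicates and do not say whether they came from separate litters.

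The arrays differed in more than genotype. RNA collected per outgrowth was 55 pg in the pooled and 144 pg in the single Tip110-/- sample, against 249 and 178 pg in wild-type. The median of the rows taken as exon controls was 8.69 and 9.51 on the Tip110-/- arrays, against 9.80 and 9.66 on the wild-type arrays, so the pooled Tip110-/- array stood lowest. The median over all genes was 4.45 and 4.32 on the Tip110-/- arrays, against 4.21 and 4.22 on the wild-type arrays, and the median of 23 antigenomic background rows was 3.05 and 2.94 for Tip110-/- and 2.83 and 2.82 for wild-type. RNA amount and array quality cannot be told apart from genotype where they move with it. Sart3 itself read 4.28 and 4.54 in Tip110-/- outgrowths, against 4.94 and 5.98 in wild-type, a difference of -1.05 ± 0.39 (SE) that did not pass adjustment (limma adjusted p = 0.386), and it is not known whether its probes lie in the part that was removed.

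LIF is a secreted cytokine that binds the LIF receptor, which pairs with gp130, the protein of Il6st. JAK kinases bound to these receptors then phosphorylate STAT3, which moves to the nucleus and switches on target genes, among them Socs3, whose product shuts the receptor complex down again. In mouse embryonic stem cells this route sustains self-renewal, and in the embryo trophoblast cells are a source of LIF while the inner cell mass carries the receptor. KIT is a receptor tyrosine kinase for stem cell factor, the protein of Kitl, best known for its roles in germ cells, blood cells and pigment cells.

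The comparison asks whether the level of these RNAs depends on Tip110. Lif and Lifr lay on opposite sides: Lif was higher in each Tip110-/- array than in either wild-type array, by 1.01 ± 0.41 on average (log2 difference ± SE, n = 2 per genotype), and Lifr was lower in each, by -1.13 ± 0.49. Jak1 was higher in both Tip110-/- arrays, while Stat3 and Il6st overlapped between genotypes, Socs3 stayed near background, and Kit was low in 1 Tip110-/- array alone. None of the 8 passed the adjusted threshold in limma (0 of 8 at an adjusted p under 0.05, against 0.00% of all genes), and 0 of 8 reached an unadjusted p under 0.05, against 12.7% of all genes. Their adjusted p ran from 0.396 to 0.948, and the lowest over all genes was 0.154. With 2 arrays per genotype an exact permutation test cannot go below p = 0.333, so no gene could pass by that test.

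**Figure D1:**
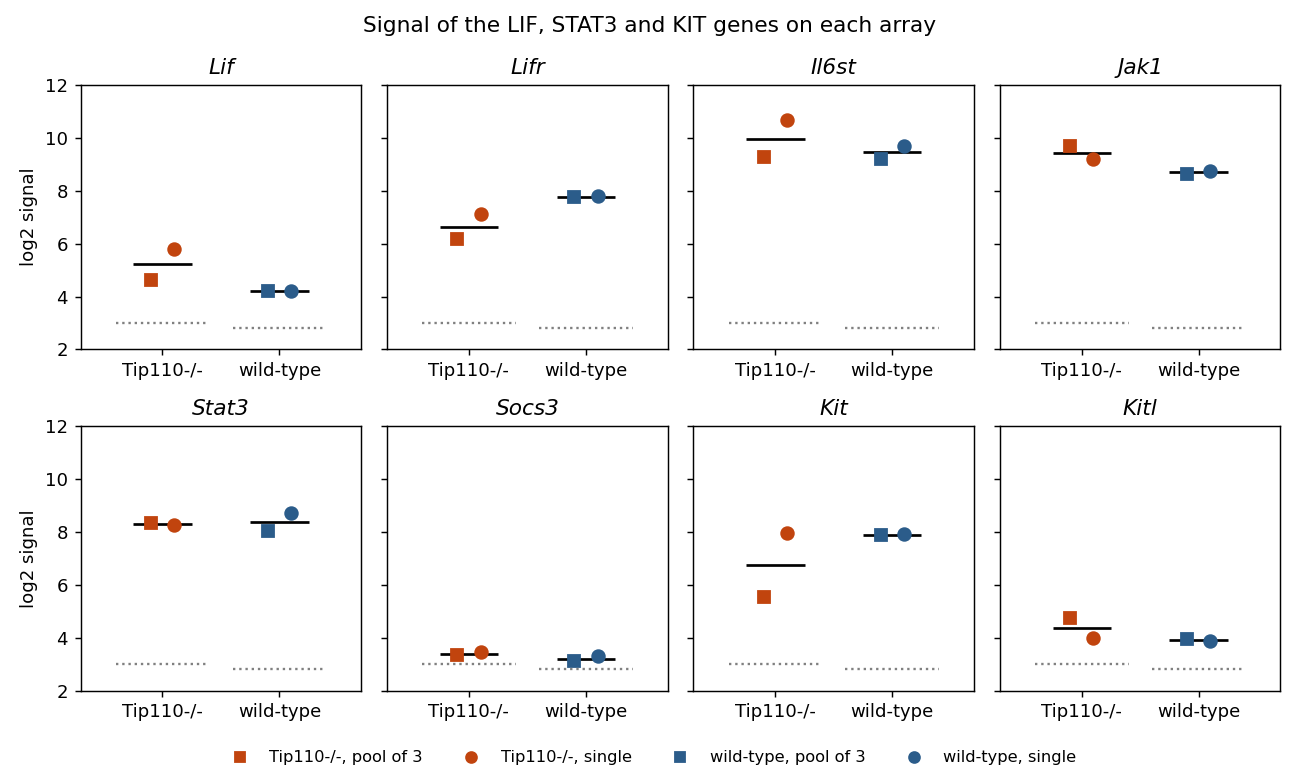
Log2 signal (y axis) of each of the 8 genes on the 4 arrays, Tip110-/- at the left of each panel and wild-type at the right; squares are pools of 3 outgrowths, circles single outgrowths, black bars the mean of 2 arrays and dotted lines the mean of the 2 arrays' median antigenomic background. Both Tip110-/- arrays lie above the wild-type pair for Lif and Jak1 and below it for Lifr, and Kit at 5.53 in the Tip110-/- pool stands apart from 3 arrays near 7.9.

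In terms of overlap, 4 of the 8 genes had both Tip110-/- arrays above both wild-type arrays (Lif, Jak1, Socs3 and Kitl), and 39.9% of all genes did so. One gene of the 8, Lifr, had both below, against 12.9% of all genes. These shares move with the scaling of whole arrays. After each array was centred on its median gene, 2 of 8 lay above without overlap (Lif and Jak1, with 17.6% of all genes) and 2 lay below (Lifr and Kit, with 23.9%). Kit did so only just, at 3.65 above the median gene in the single Tip110-/- array, against 3.66 and 3.71 in wild-type. Socs3 and Kitl then overlapped between genotypes. The median difference of the 8 genes was 0.32, beside 0.15 for all genes.

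The stretches just upstream of the annotated starts of Lif, Lifr and Socs3 are shown because Lif and Lifr differed in opposite directions without overlap and because Socs3 is the textbook direct target of STAT3. They are the 250 bases before each start in RefSeq's table for GRCm38.p6, which held a window for all 8 genes, 10 windows in all since Lifr and Kit have 2 starts each. Lif lies on chr11:4257318-4257567 (plus strand), Lifr on chr15:7129322-7129571 (plus strand, the first of its 2 starts) and Socs3 on chr11:117969367-117969616 (minus strand). Capitals mark TTCNNNGAA, the palindromic element that STAT dimers bind, and GGGCGG, the GC box, each searched on both strands along with TATAAA.
Lif: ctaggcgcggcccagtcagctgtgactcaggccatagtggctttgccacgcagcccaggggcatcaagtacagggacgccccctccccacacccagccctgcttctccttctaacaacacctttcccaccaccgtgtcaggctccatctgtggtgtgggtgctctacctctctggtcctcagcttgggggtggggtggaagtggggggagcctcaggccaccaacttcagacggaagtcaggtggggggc
Lifr: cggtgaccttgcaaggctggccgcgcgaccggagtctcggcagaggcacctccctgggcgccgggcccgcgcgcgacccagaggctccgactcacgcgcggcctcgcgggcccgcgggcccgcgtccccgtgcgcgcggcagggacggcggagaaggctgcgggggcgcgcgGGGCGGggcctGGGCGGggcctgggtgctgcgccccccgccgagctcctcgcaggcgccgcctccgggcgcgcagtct
Socs3: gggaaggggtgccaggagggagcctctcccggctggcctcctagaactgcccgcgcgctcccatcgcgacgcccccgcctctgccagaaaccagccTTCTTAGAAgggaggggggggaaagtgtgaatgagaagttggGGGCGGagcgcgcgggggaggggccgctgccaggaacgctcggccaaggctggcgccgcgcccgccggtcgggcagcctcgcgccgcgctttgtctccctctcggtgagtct
Among the 8 genes TTCNNNGAA occurred in Socs3 alone, beginning 154 bases before its start, and 7.02% of all 32851 windows in the table held it. GGGCGG occurred in 7 of the 8 genes, all but Lif. By window it occurred in 8 of their 10, of which the 2 of Kit overlap almost wholly, against 32.7% of all windows. The Lif window held 6 CpG dinucleotides, against 43 in the Lifr window shown and 26 in that of Socs3. The second Lifr start, on chr15:7140292-7140541, had a window with 3 CpG and no GGGCGG, fewer CpG than that of Lif. TATAAA was found in the Kitl window only, 25 bases before the start, and in 12.4% of all windows. These are matches of letters in short windows, in a build that may differ from the one behind the array annotation.

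Lif, the ligand, read 4.64 in the pooled and 5.81 in the single Tip110-/- array, against 4.22 and 4.21 in the wild-type arrays. The single Tip110-/- outgrowth was the highest of the 4, the wild-type pair was nearly equal, and the genotypes did not overlap. The mean was 5.22 ± 0.83 in Tip110-/- and 4.22 ± 0.0035 in wild-type (SD, n = 2 each), a ratio of 2.01. The interval of the difference (95%, limma) ran from -0.05 to 2.07, and the test did not pass (limma adjusted p = 0.396, unadjusted p = 0.058). An unadjusted p this small or smaller was found in 14.7% of all genes. In wild-type Lif exceeded 20 of the 23 background rows on each array and sat at the median gene, so the ratio may understate the difference. Its signal in the Tip110-/- pool was also low, above 21 of the 23 rows and 0.18 above that array's median gene. In the single Tip110-/- array it exceeded all 23. After centring on the median gene the mean difference was 0.84, against 1.01 as deposited, so its size also depended on the scaling of whole arrays. The size rested on the single Tip110-/- outgrowth: the difference was 0.42 without Tip110-/- replicate 2 and 1.60 without Tip110-/- replicate 1.

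Lifr, the receptor subunit that binds LIF, went the other way. Its signal was 6.16 in the pooled and 7.11 in the single Tip110-/- array, against 7.75 and 7.79 in wild-type. Both Tip110-/- arrays lay below both wild-type arrays, with the pool the lowest, and all 4 exceeded every background row. The mean was 6.63 ± 0.67 in Tip110-/- and 7.77 ± 0.023 in wild-type (SD, n = 2 each), a ratio of 0.455. The 95% interval ran from -2.39 to 0.13 (limma adjusted p = 0.400, unadjusted p = 0.069). The difference was -1.61 without Tip110-/- replicate 2 and -0.66 without Tip110-/- replicate 1. In a bulk outgrowth, fewer receptor-bearing cells and less receptor RNA per cell cannot be told apart.

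Il6st encodes gp130, the signalling subunit shared by the receptors of the IL-6 family. It read 9.27 and 10.67 in Tip110-/- outgrowths, against 9.21 and 9.70 in wild-type. Only the single Tip110-/- outgrowth exceeded both wild-type arrays, and the groups overlapped. The difference was 0.52 ± 0.69 (SE), with an interval from -1.25 to 2.28 (limma adjusted p = 0.699), and it was -0.18 without Tip110-/- replicate 2. The 2 subunits of the LIF receptor therefore did not share a pattern over the 4 arrays: Lifr was lower in both Tip110-/- arrays, whereas Il6st was about level with its wild-type counterpart in the pool and highest of all in the single outgrowth.

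Jak1, a tyrosine kinase that gp130 receptors carry, read 9.68 in the pooled and 9.19 in the single Tip110-/- array, against 8.65 and 8.75 in wild-type. The genotypes did not overlap, before or after centring. The difference was 0.74 ± 0.52 (SE), a ratio of 1.67, with an interval from -0.59 to 2.06 (limma adjusted p = 0.496). It was positive within the pools, at 1.03, and within the single outgrowths, at 0.44.

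Stat3 read 8.36 and 8.25 in Tip110-/- outgrowths, against 8.02 and 8.73 in wild-type. The Tip110-/- arrays both lay inside the wild-type range. The difference was -0.08 ± 0.52 (SE), the smallest of the 8, with an interval from -1.40 to 1.25 (limma adjusted p = 0.948). An interval this wide leaves room for a doubling or a halving, so these arrays do not show that Stat3 RNA was equal. The arrays measure RNA and hold no reading of STAT3 phosphorylation, which is how the pathway is switched on.

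Socs3, whose match to TTCNNNGAA is printed above, exceeded the fewest background rows of the 8 genes. It read 3.33 and 3.46 in Tip110-/- outgrowths, against 3.10 and 3.32 in wild-type, above only 16 or 17 of the 23 background rows on any array and below the median gene on all 4. The difference was 0.18 ± 0.11 (SE; limma adjusted p = 0.467) and 0.015 after centring. Its closeness to background on every array limits what these data can show of the feedback step.

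Kit read 5.53 in the pooled Tip110-/- array and 7.97 in the single Tip110-/- array, against 7.87 and 7.94 in wild-type. A single array was low, and the other Tip110-/- array was slightly above both wild-type arrays. The mean was 6.75 ± 1.73 in Tip110-/- and 7.90 ± 0.046 in wild-type (SD, n = 2 each), a difference of -1.15 ± 0.87 (SE) with an interval from -3.38 to 1.07 (limma adjusted p = 0.516). Without Tip110-/- replicate 1 the difference was 0.066, the opposite sign, and without Tip110-/- replicate 2 it was -2.37. Kit exceeded every background row on all 4 arrays. The genes nearest to this pattern, out of 10079 other protein-coding genes above the median level, were Supt20, a subunit of the SAGA chromatin complex, and Vac14, a scaffold of the complex that makes a signalling lipid of endosomes. Over the 4 arrays, with each gene centred on its own mean, they differed from Kit by a root mean square of 0.047 and 0.106 log2 units. Supt20 read 8.08 and 10.57 in Tip110-/- outgrowths, against 10.36 and 10.55 in wild-type. With 4 values per gene and 10079 candidates, close matches can arise from the search alone. How near the closest neighbours of other genes lie was not measured, and shared control was not tested.

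Kitl, the ligand of KIT, read 4.74 in the pooled and 4.00 in the single Tip110-/- array, against 3.96 and 3.87 in wild-type. The Tip110-/- pool, where Kit was lowest, had the highest Kitl signal, and the single Tip110-/- outgrowth lay only just above the wild-type pair. The difference was 0.45 ± 0.27 (SE; limma adjusted p = 0.454), and it was 0.82 without Tip110-/- replicate 2 and 0.09 without Tip110-/- replicate 1. Kitl was above the median gene on 1 array only, that of the Tip110-/- pool. Its signal was near background. It exceeded 22 of the 23 background rows in the Tip110-/- pool, 20 in the single Tip110-/- array, and 20 and 19 in wild-type. The relation of Kitl to Kit was not tested.

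Because each genotype had 1 pool and 1 single outgrowth, the genotypes can be set against each other within each kind of sample. In 6 of the 8 genes the pooled pair and the single pair gave a difference of the same sign. The exceptions were Stat3, at 0.33 in the pools and -0.48 in the single outgrowths, and Kit, at -2.34 and 0.03. The share of all genes with the same sign in both pairs was not counted, so 6 of 8 cannot be judged against it. Lif differed by 0.42 in the pools and 1.60 in the single outgrowths, and Lifr by -1.59 and -0.68. The Tip110-/- arrays were farther from each other than the wild-type arrays in 6 of the 8 genes, all but Stat3 and Socs3, where 56.0% of all genes showed this. The gap between the 2 arrays of a genotype reached 2.44 in Tip110-/- (Kit) and 0.71 in wild-type (Stat3).

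**Figure D2:**
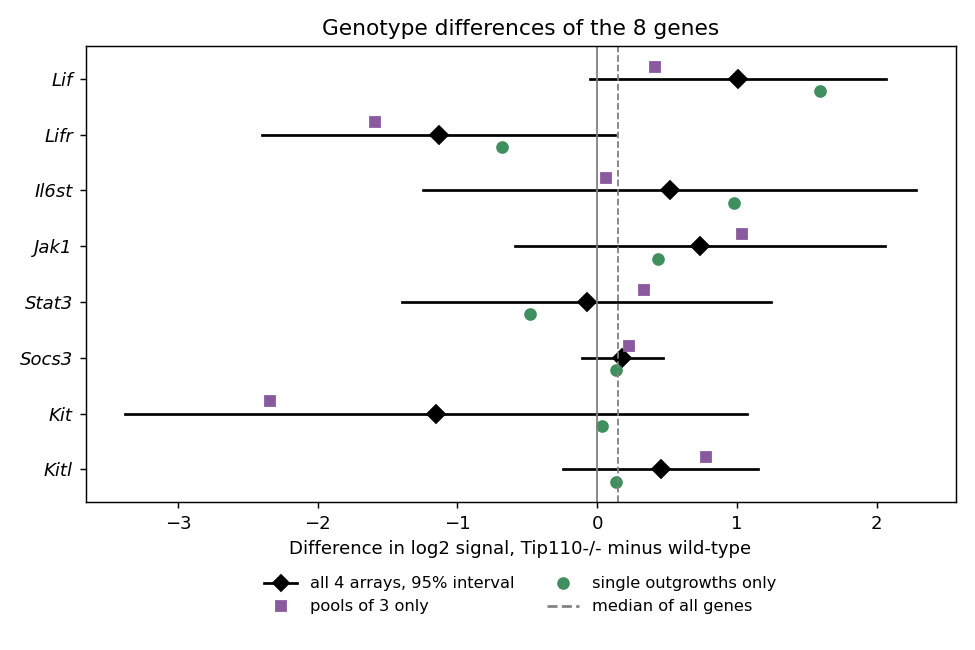
Difference in log2 signal, Tip110-/- minus wild-type (x axis), for the 8 genes: black diamonds with bars are the limma estimate and its 95% interval over 4 arrays, squares the difference between the 2 pools, circles that between the 2 single outgrowths, and the dashed line the median of all genes at 0.15. All 8 intervals include 0, and the 2 within-pair values lie on opposite sides of 0 for Stat3 and Kit, with Kit at 0.03 in the single outgrowths.

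The remaining genes of these pathways were read from 6 lists with 65 entries, 56 of them measured. None passed the adjusted threshold in limma. At an unadjusted p under 0.05, 4 of the 56 were higher in Tip110-/- (7.14%, against 8.99% of all genes) and 5 were lower (8.93%, against 3.67% of all genes). The median difference over the 56 was -0.01, beside 0.15 for all genes. The balance over all genes depends on scaling: 2711 genes were higher and 1106 lower as deposited, and 911 higher and 1825 lower after centring.

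Among ligands of the IL-6 family, relatives of LIF that signal through gp130, 0 of 6 measured genes reached the unadjusted threshold, and 4 of the 6 lay below the median gene on all 4 arrays. Il11, with the smallest p, read 3.72 and 3.54 in Tip110-/- outgrowths, against 3.44 and 3.56 in wild-type (limma adjusted p = 0.584). Among receptors of the family 1 of 4 was lower and 0 higher. That gene was Il6ra, the binding subunit for interleukin 6, at 4.92 and 5.59 in Tip110-/- outgrowths, against 6.20 and 6.11 in wild-type, a difference of -0.90 ± 0.34 (SE; limma adjusted p = 0.388). Like Lifr, it was lower in both Tip110-/- arrays with the pool the lowest.

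Of 7 other JAK kinases and STAT factors, 1 was higher and 0 lower at that threshold. Jak2, a kinase that acts beside Jak1 on cytokine receptors, read 8.17 and 8.77 in Tip110-/- outgrowths, against 6.61 and 7.23 in wild-type. The groups did not overlap, and the difference was alike in the pools, at 1.56, and in the single outgrowths, at 1.54. Its mean difference was 1.55 ± 0.50 (SE), a ratio of 2.92, and did not pass adjustment (limma adjusted p = 0.364). Of the 15 inhibitors of cytokine signalling, 1 was higher and 1 lower. Cish, which is induced by STAT5 and restrains it, read 5.37 and 5.55 in Tip110-/- outgrowths, against 4.70 and 4.81 in wild-type, a difference of 0.70 ± 0.22 (limma adjusted p = 0.358). Socs2, a relative of Socs3 known for restraining growth hormone signalling, read 5.23 and 5.09 in Tip110-/- outgrowths, against 5.94 and 6.11 in wild-type, a difference of -0.87 ± 0.26 (limma adjusted p = 0.352).

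Of 11 measured genes known as targets of LIF and STAT3 in embryonic stem cells, 3 were lower and 1 higher at the unadjusted threshold. Those which reached it thus did not share a direction. Over the list 9 of the 11 means were lower and 2 higher, and the median difference was -0.39, beside 0.15 for all genes. The share of all genes with a lower mean was not counted. As deposited, both Tip110-/- arrays lay below both wild-type arrays in 6 of the 11, against 12.9% of all genes. They lay above in 1, against 39.9%. After centring, the shares of all genes were 23.9% below and 17.6% above, and this list was not recounted, so the contrast depends on the scaling. Tfcp2l1, a transcription factor that mediates LIF-driven self-renewal, read 9.19 and 5.29 in Tip110-/- outgrowths, against 11.38 and 13.62 in wild-type, a difference of -5.26 ± 1.51 (SE; limma adjusted p = 0.343). Klf5 differed by -1.70 ± 0.66 and Bcl3, a nuclear partner of NF-kB, by -0.58 ± 0.16. Bcl3 read 3.76 and 3.78 in Tip110-/-, below the median gene, against 4.49 and 4.21 in wild-type. Myc differed by 2.12 ± 0.60 in the other direction, at 12.52 and 13.82 in Tip110-/- outgrowths, against 11.15 and 10.95 in wild-type. The adjusted p of these 3 genes was 0.393, 0.342 and 0.343 in limma. Klf4, named after its values were seen because it is the best known of the targets, read 8.06 and 8.19 in Tip110-/- outgrowths, against 9.08 and 8.80 in wild-type, without reaching the unadjusted threshold (limma adjusted p = 0.453).

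Of 13 genes that relay the KIT signal, 1 was higher and 0 lower, with a list median of 0.19. Fyn, a kinase of the SRC family, read 7.64 and 7.39 in Tip110-/- outgrowths, against 6.54 and 5.71 in wild-type, a difference of 1.39 ± 0.45 (SE; limma adjusted p = 0.363). Fyn was higher in both Tip110-/- arrays, and Kit was low in 1 of them. The part of Kit in the Fyn difference was not tested.

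**Figure D3:**
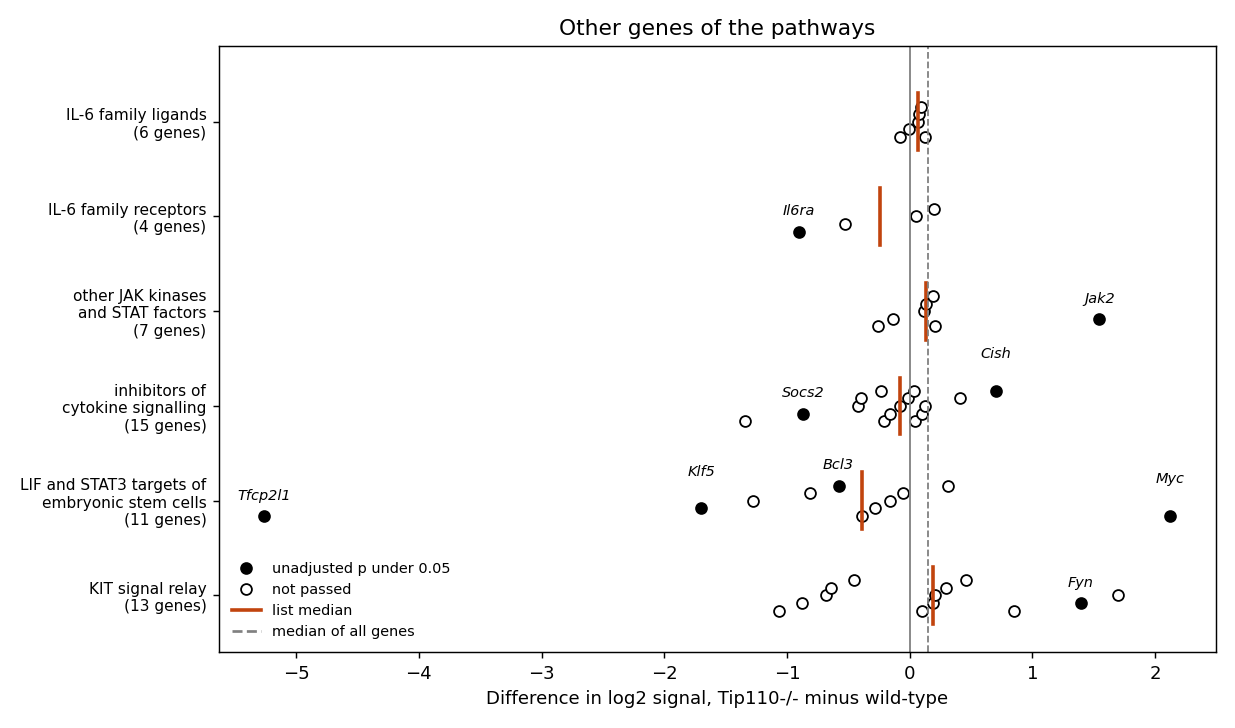
Difference in log2 signal, Tip110-/- minus wild-type (x axis), of 56 other genes of the pathways in 6 lists (rows); each point is a gene, filled where its unadjusted limma p is under 0.05, red bars are list medians and the dashed line is the median of all genes. The 9 filled genes lie on both sides of 0, from Tfcp2l1 at -5.26 to Myc at 2.12.

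Markers of the cell types an outgrowth can hold were read on the same arrays, and none passed the adjusted threshold in limma. At an unadjusted p under 0.05, where 8.99% of all genes were higher and 3.67% lower, 8 of 10 epiblast markers were lower and 0 higher. Their summed linear signal was 2501 in the pooled and 1117 in the single Tip110-/- array, against 23441 and 53187 in wild-type. Nanog, the brightest marker, made up much of the wild-type sums, and without it the sums were 1402 and 1099 in Tip110-/- outgrowths, against 11385 and 15812 in wild-type. The markers differed unequally, with Utf1 at -0.64 and Zfp42 at -0.69 not reaching the threshold. Of 10 trophoblast markers 1 was higher and 0 lower, close to the share of all genes, with sums of 445781 and 810206 in Tip110-/- outgrowths, against 457891 and 301129 in wild-type. By these sums the 2 pools were nearly level, and the 2 single outgrowths were not. Without Prl2c2, the brightest marker, the sums were 298756 and 481804 in Tip110-/- outgrowths, against 280608 and 195978 in wild-type. All 10 means were higher in Tip110-/-, with a median difference of 0.61, beside 0.15 for all genes. The share of all genes with a higher mean was not counted. Both Tip110-/- arrays lay above both wild-type arrays in 4 of the 10, against 39.9% of all genes. Mean trophoblast marker signal was 11.53 and 11.95 in Tip110-/- outgrowths, against 11.16 and 11.02 in wild-type. Of 9 primitive endoderm markers 0 reached the threshold, with sums of 2929 and 4576 in Tip110-/- outgrowths, against 8168 and 4663 in wild-type, most of it from Sparc. The part of these lists in the differences of Lif, Lifr and the target genes was not tested.

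The order of the Tip110-/- arrays was not the same in these measures. Mean epiblast marker signal was 6.90 in the Tip110-/- pool and 5.59 in the single Tip110-/- outgrowth, against 9.58 and 9.65 on the wild-type arrays, so the single outgrowth was the lower. The pool was the lower of the 2 Tip110-/- arrays for the exon control rows and for 5 of the 8 genes (Lif, Lifr, Il6st, Socs3 and Kit), and the higher for Jak1, Stat3 and Kitl. Over all genes the pool was the lower in 41.5%. The part of the exon control shift in the low Lifr and Kit signals of the pool was not tested.

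Markers of other cells that use KIT, or that could be carried along, were read too. All 7 measured blood and mast cell markers, Ptprc, Cpa3 and Gata1 among them, lay below the median gene on all 4 arrays, with summed linear signals of 84 and 78 in Tip110-/- outgrowths, against 73 and 71 in wild-type. At the unadjusted threshold 2 of the 7 were higher, Cpa3 by 0.26 and Fcer1a by 0.25, and 0 lower. Over all genes 8.99% were higher and 3.67% lower. All 7 means were higher in Tip110-/-, with a median difference of 0.19, beside 0.15 for all genes, whose share with a higher mean was not counted. Their signals ran from 3.07 to 3.82. The median of the background rows was 3.05 and 2.94 for Tip110-/-, against 2.83 and 2.82 for wild-type. The part of that shift in these markers was not tested. Of 8 markers of fibroblasts and uterine stroma, 7 lay below the median gene on all 4 arrays and 0 reached the threshold, with sums of 127 and 112 for Tip110-/- and 101 and 113 for wild-type. Of 6 germ cell markers, 3 were above the median gene on all 4 arrays. Their sums were 1140 and 243 in Tip110-/- outgrowths, against 519 and 3164 in wild-type, mostly from Dazl, and without it 116 and 106 for Tip110-/- and 128 and 151 for wild-type. Of the 6, 1 was lower and 0 higher at the unadjusted threshold, Dppa3, which epiblast cells also express, at -1.51 (limma adjusted p = 0.339). The part of germ cells in the Kit signal was not tested.

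**Figure D4:**
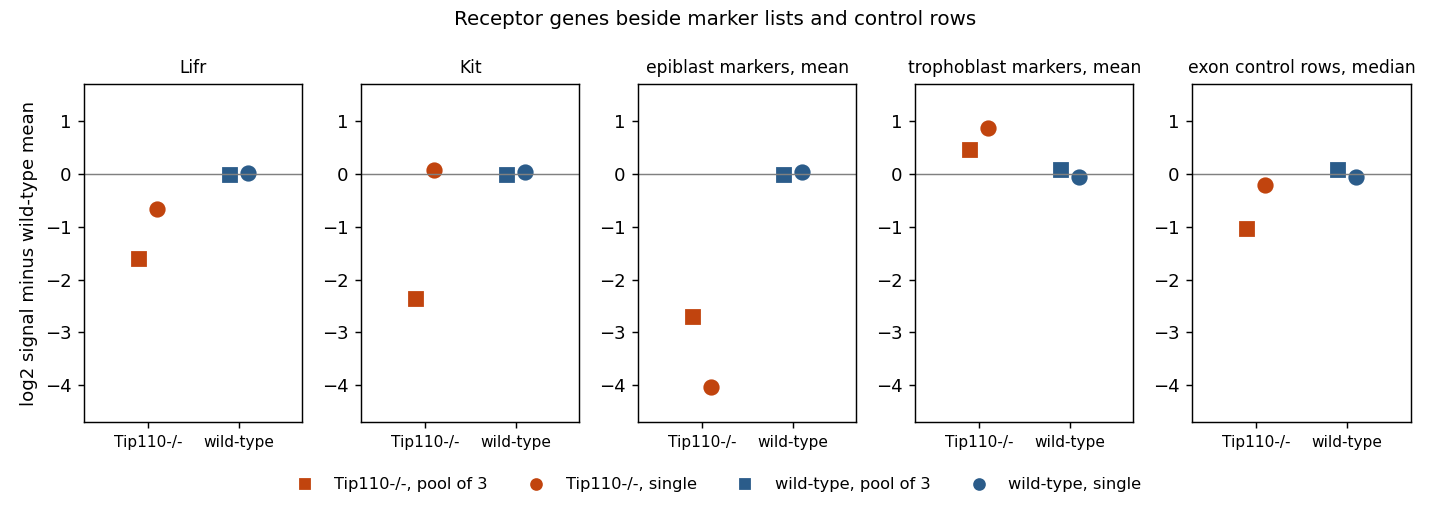
Log2 signal minus the wild-type mean (y axis) for Lifr, Kit, the mean of 10 epiblast markers, the mean of 10 trophoblast markers and the median of 1324 exon control rows, Tip110-/- left and wild-type right; squares are pools of 3 outgrowths and circles single outgrowths. The Tip110-/- pool is the lower of the 2 Tip110-/- arrays for Lifr, Kit and the control rows, and the single outgrowth is the lower for the epiblast markers.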

How the data were processed

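The authors deposited log2 signal for 72688 array rows in 4 columns. That the scale is log2 was judged from the span of the signals. Affymetrix Expression Console and Transcriptome Analysis Console are named, per the submitters' processing notes, with no version. For the normalization and the genome build, the method is not given in the sources used here. The sample labels give 144 pg of RNA per array and the design text 100 pg.

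Of 65956 transcript rows, 30604 had 1 gene symbol, updated by Entrez ID for 22818. The row with the highest mean was kept per gene, leaving 30142 genes. Genotype was fitted over all of them by lmFit and trended eBayes (limma 3.58.1, R 4.3.3), as the only term, with two-sided p adjusted by Benjamini-Hochberg and a threshold of 0.05. Tip110-/- was set over wild-type. The estimates of the fit were checked on simulated data with equal spread in both genotypes, unlike Lif or Kit here. Tables were handled with pandas 2.3.3 and plots with matplotlib 3.10.9. Alternatives were other scalings, a level filter, other variance settings, a term for replicate, averaging over rows of 1 gene, and each array left out. Pathway genes were named where their unadjusted p was under 0.05, up to 4 per list, or else by the smallest p, and neighbours in pattern for genes with a range of at least 2. The genes and lists were chosen with earlier results of these data known, and p-values measure the spread between these arrays only.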

Additional observations from a re-analysis of the deposited data

How the results depend on the processing

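The number of arrays limits the precision: each SD rests on 2 values, and signals near background understate differences. No gene of the 8 or of the 56 passed adjustment under any of the 13 alternatives, while Lif, Lifr, Jak1, Socs3 and Kitl kept their direction wherever they were tested; the filter on level dropped Socs3 and Kitl, and also Bcl3 and Il11. Other signs changed. The Stat3 difference was 0.019 with quantile normalization and ranged from -0.43 to 0.28 with 1 array left out, that of Il6st from -0.18 to 1.22 and that of Kit from -2.37 to 0.066. That of Il11 was -0.066 with quantile normalization, -0.039 with centring and -0.056 with cyclic loess. The cause was not tested.

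The count of the 8 genes at an unadjusted p under 0.05, which was 0, became 2 without the trend (Jak1 and Lifr), 1 with array weights (Lif), 1 with the replicate block (Lif, limma adjusted p = 0.431) and 0 to 3 with 1 array left out. The 3 came without Tip110-/- replicate 2 (Kit, Kitl and Lifr, the smallest limma adjusted p = 0.218), where the remaining Tip110-/- array is assumed to vary like wild-type. With 1 array left out the pathway genes higher numbered 0 to 5, against 4 with all arrays, and those lower 2 to 4, against 5. The 0 higher came without Tip110-/- replicate 2, and there were 2 higher and 2 lower without wild-type replicate 1 and 1 higher and 2 lower without wild-type replicate 2. With genes above the median level only, where fewer genes were tested, 2 were lower. The replicate block gave 3 higher and 4 lower. Over all genes the 2711 higher and 1106 lower became 1262 and 1459 with quantile normalization, 1173 and 1540 with cyclic loess, 1659 and 1479 without the trend, 707 and 1029 above the median level, and 1166 to 4660 and 862 to 1314 with 1 array left out. Deviations of same-numbered arrays correlated at r = -0.09 across genes, and the number separates pools from single outgrowths, so it was not taken to pair the samples.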
